A study of Mus musculus with 2 samples.

Results

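The unfolded protein response and the integrated stress response were followed through 34 genes of osteoblasts, the cells that form bone, after a short rise of extracellular phosphate. The genes were set by name, with earlier results of these data known. They comprise 17 chaperones and degradation factors of the endoplasmic reticulum (ER), 14 genes for the transcription factor ATF4 and its targets, and 3 genes for stress sensors and their effector Xbp1. Of 18193 genes with a probe set that names only them, these 34 were all represented, by 83 probe sets, of which 72 exceeded the signal floor of 21.5 (the median of all values) in both conditions.

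RNA was measured on Affymetrix mouse arrays in primary osteoblasts from the calvariae (skull caps) of 5-day-old C57BL/6 mice, grown for 3 days with 10% serum. Both cultures spent a night without serum and then 6 h in fresh serum-free medium at pH 7.2, with 1 mM phosphate in the control and 4 mM in the treated culture. The added phosphate came from a sodium phosphate stock, so the treated medium also received sodium, and the number of mice behind each culture is not given in the sources used here. Each condition was 1 array, which leaves no replicate error, so no test was run and no p-value is given, and the ratios describe these 2 arrays. Precision is limited by that number of arrays.

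As background, proteins that fold in the ER are assisted by chaperones, and unfolded protein there activates the membrane sensors IRE1 (encoded by Ern1), ATF6 and PERK. IRE1 splices the Xbp1 transcript, ATF6 is cut and moves to the nucleus, and PERK phosphorylates the translation factor eIF2alpha, which favours translation of ATF4. Other kinases phosphorylate the same factor when amino acids run short or other stresses occur, hence the name integrated stress response. Osteoblasts secrete large amounts of collagen and depend on this machinery, and ATF4 is needed for normal osteoblast differentiation.

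Few of the 34 genes differed between the arrays. All 17 ER genes lay within 1.5-fold of the control (a log2 ratio of 0.58), with a median log2 ratio, phosphate minus control, of −0.08. Among the ATF4 genes, Nupr1 was 1.92-fold and Ppp1r15a 1.60-fold higher in phosphate, and the median was 0.21. At the 1.5-fold threshold, 2 of 34 genes counted as higher and 0 as lower, and no gene reached 2-fold. Of the 12276 genes measured (brighter than the floor in either condition), 7.26% passed 1.5-fold upwards and 12.1% downwards, and the shares past 2-fold were 2.3% and 2.92%. Among the 8090 genes above a signal of 100 on both arrays, as 33 of the 34 were, the shares at 1.5-fold were 4.97% and 7.95%. The 2 higher genes (2 of 34) are thus close to the background of higher genes, and 32 of 34 (94.1%) lay within 1.5-fold, against 80.6% of all measured genes and 87.1% of the brighter ones.

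These ratios rest on scaling each array to the same mean signal. Poly-A spikes, bacterial RNAs added before labelling, gave more signal in the treated sample, the median log2 ratio of their 24 probe sets being 0.46. With the spikes set equal, 0 of the 34 genes passed 1.5-fold upwards and 12 downwards, against 2.14% and 41.8% of all measured genes, so these counts too are no result about the 34 genes. The medians of the ER, ATF4 and sensor genes became −0.54, −0.25 and −0.46. The median of all genes was then −0.51 (−0.06 as scaled here), with the ATF4 genes 0.25 above it and the ER genes 0.03 below it. Apart from values near the floor, this scaling lowers every ratio by the same amount. The gaps to the median of all genes were thus nearly fixed in advance, and their size here is no further support. All directions below hold for equal mean signal.

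Transcripts that define osteoblasts were present. Signals of the bone matrix genes Col1a1 and Ibsp and of the osteoblast transcription factor gene Sp7 were 10139, 13398 and 1600 in the control and 11889, 14449 and 1223 in phosphate. Macrophage and osteoclast markers were also present, none at the floor. A ratio below 0 was found for 10 of 11 (median −0.54), against 6858 of all 12276 measured genes. At 1.5-fold, 3 of the 11 were lower and 0 higher, against 12.1% and 7.26% of all measured genes. The summed signal of the 11 was 18650 in the control and 16917 in phosphate. Most of it came from Lyz2 (7895 and 7745) and Ctsk (4097 and 4376). Of the endothelial markers, 4 of 4 were at or below the floor on both arrays. Cartilage markers were present at like levels on both arrays (summed signals of 10123 and 9362), while the 2 of 3 adipocyte markers above the floor, Adipoq and Fabp4, had ratios of −0.51 and −0.08 (summed signals of 1692 and 1506). In bulk RNA, fewer cells of a type and less RNA per cell cannot be told apart, and the part of other cell types in the ratios below was not tested. RNA integrity was alike: the 3′ to 5′ ratio of actin was 1.36 in the control and 1.43 in phosphate, and that of Gapdh 0.748 and 0.769.

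The promoters of these genes are shown first because the 2 larger arms differ in them. The ER stress response element (ERSE) consists of CCAAT and CCACG with any 9 bases between them and is bound by ATF6 with the factor NF-Y. It was searched on both strands in the 250 bases before each start site in the RefSeq promoters of GRCm38.p6, which hold 30 of the 34 genes (15 ER, 13 ATF4 and 2 sensor genes). An exact match occurred in 7 of the 15 ER genes, in none of the 13 ATF4 genes and in 35 of 27025 genes in all (0.13%). The matches are given in the motif's own direction, with the fixed letters in capitals.
Hspa5, chr2:34772025-34772043, plus strand: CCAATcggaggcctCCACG
Hsp90b1, chr10:86705638-86705656, minus strand: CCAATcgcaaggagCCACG
Hsp90b1, chr10:86705533-86705551, plus strand: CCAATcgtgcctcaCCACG
Calr, chr8:84847075-84847093, plus strand: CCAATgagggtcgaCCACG
Canx, chr11:50325800-50325818, minus strand: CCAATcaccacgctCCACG
Pdia6, chr12:17266491-17266509, plus strand: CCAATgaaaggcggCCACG
Dnajc3, chr14:118937827-118937845, plus strand: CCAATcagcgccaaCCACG
Creld2, chr15:88819520-88819538, minus strand: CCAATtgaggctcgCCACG

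In each of these the fixed ends are joined by 9 bases that differ from gene to gene. Hsp90b1 holds a pair of them in opposite directions. Because such elements are part of what the unfolded protein response is known for, their presence is a property of the chosen genes and says nothing of the response to phosphate. The whole 250-base windows of Hspa5 and Hsp90b1, which encode the ER chaperones BiP and GRP94, show where the element lies, with the matches in capitals as they read on the gene's strand (reverse matches begin with CGTGG).
Hspa5, chr2:34771840-34772089, plus strand: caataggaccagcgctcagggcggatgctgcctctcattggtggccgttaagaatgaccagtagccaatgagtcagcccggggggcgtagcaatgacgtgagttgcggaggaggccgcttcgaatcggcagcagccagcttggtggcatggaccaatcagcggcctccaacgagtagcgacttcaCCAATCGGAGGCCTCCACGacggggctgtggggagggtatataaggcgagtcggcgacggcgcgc
Hsp90b1, chr10:86705445-86705694, minus strand: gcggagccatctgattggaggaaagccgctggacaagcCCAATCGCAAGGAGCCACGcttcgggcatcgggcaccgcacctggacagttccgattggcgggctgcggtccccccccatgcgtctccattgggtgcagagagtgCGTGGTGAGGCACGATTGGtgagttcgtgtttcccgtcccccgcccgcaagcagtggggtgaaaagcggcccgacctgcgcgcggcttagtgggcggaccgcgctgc

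The exact ERSE match of Hspa5 lies 47 to 65 bases before the start, and inexact copies of the element were not searched for. A second form of the element, ERSE-II (ATTGG, any 1 base, CCACG), was found in 1 member, Herpud1, and in 10 of 27025 genes (0.037%). The UPR element core TGACGTGG was found in no member and in 163 genes (0.603%). The C/EBP-ATF response element (CARE), where ATF4 binds with C/EBP proteins, was searched as TGATGNAA on both strands. It occurred in 4 of 13 ATF4 genes (Asns, Chac1, Nupr1 and Vldlr), in 1 of 15 ER genes (Herpud1) and in 1056 genes in all (3.91%). No match of one motif overlapped a match of another in these genes. Nupr1, Chac1 and Asns are printed because they share this motif and had the highest, the lowest and a near-zero ratio of their arm, and Herpud1 because it holds both kinds of element. Capitals mark CARE and, in Herpud1, also ERSE-II.
Nupr1, chr7:126625471-126625720, minus strand: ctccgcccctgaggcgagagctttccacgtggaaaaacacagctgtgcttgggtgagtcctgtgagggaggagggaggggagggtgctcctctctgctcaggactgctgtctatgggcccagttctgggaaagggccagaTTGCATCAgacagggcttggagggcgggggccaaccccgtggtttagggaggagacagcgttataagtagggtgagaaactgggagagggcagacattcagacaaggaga
Chac1, chr2:119350992-119351241, plus strand: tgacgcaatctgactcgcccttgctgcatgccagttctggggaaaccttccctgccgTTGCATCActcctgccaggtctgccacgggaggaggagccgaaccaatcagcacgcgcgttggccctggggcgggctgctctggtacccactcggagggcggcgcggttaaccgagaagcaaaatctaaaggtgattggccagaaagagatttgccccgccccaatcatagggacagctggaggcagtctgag
Asns, chr6:7693210-7693459, minus strand: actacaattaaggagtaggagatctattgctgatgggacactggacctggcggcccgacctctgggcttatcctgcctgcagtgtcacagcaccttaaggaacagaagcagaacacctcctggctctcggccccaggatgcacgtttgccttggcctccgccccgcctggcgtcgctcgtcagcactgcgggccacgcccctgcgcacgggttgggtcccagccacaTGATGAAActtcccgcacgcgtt
Herpud1, chr8:94386179-94386428, plus strand: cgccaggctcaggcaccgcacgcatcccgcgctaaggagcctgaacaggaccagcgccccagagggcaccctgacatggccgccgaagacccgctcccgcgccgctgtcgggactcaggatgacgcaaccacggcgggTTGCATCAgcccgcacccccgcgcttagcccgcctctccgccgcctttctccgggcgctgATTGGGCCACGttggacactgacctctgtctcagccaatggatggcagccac

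Nupr1, Chac1 and Herpud1 carry the same 8 letters, TTGCATCA, on the strand of the gene, as does Vldlr at a log2 ratio of 0.10, and Asns carries TGATGAAA. The log2 ratios of Nupr1, Chac1, Herpud1 and Asns were 0.94, −0.45, −0.28 and −0.04, so genes with the motif did not share a direction. The 7 genes with an ERSE had ratios from −0.21 to 0.33 (median 0.01), and the 23 others with a promoter from −0.45 to 0.94 (median 0.01). Those others include all 13 ATF4 genes and the 2 sensor genes with a promoter. The 2 medians therefore do not compare ER genes with and without the motif. The ER genes without it ran from −0.38 (Edem1) to 0.43 (Dnajb9). A match of letters is a description of the window and no proof of binding.

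**Figure D1:**
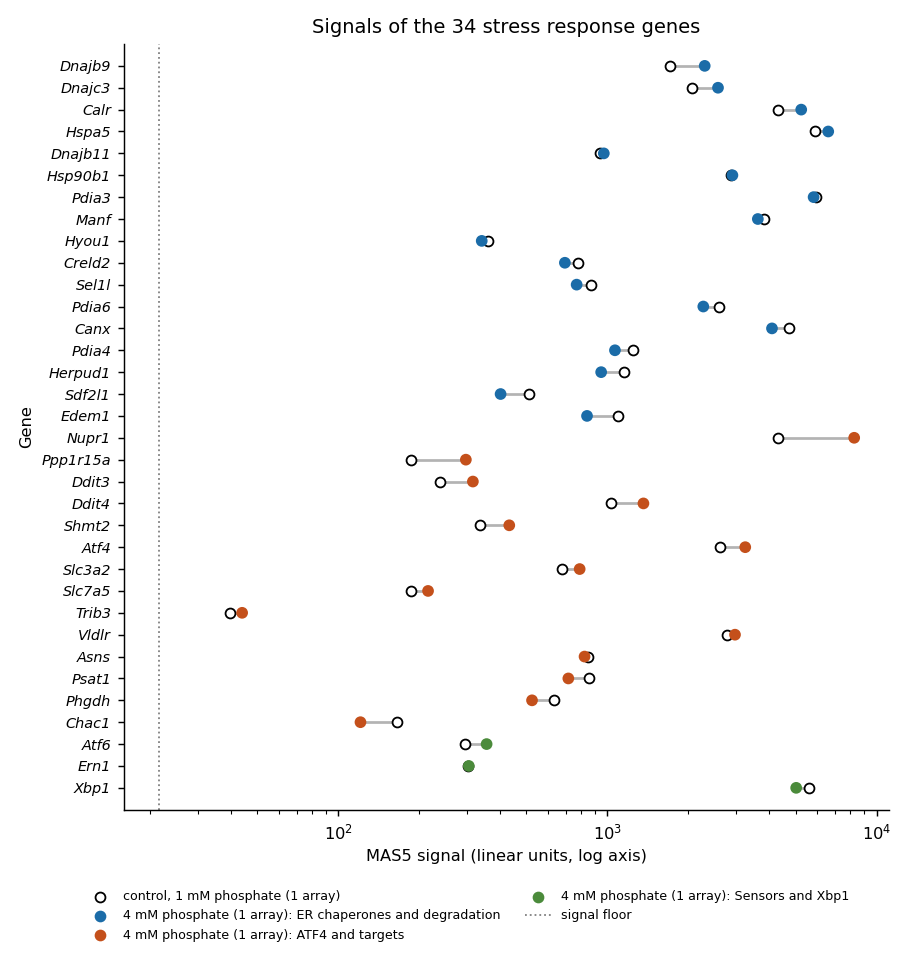
MAS5 signal of each of the 34 genes (log axis, linear signal units) on the control array (open circles, 1 mM phosphate) and on the phosphate array (filled circles, 4 mM), 1 array each, joined by a line. Most pairs nearly touch, Nupr1 (4310 and 8261) being the widest, and all 34 lie right of the floor of 21.5. Signals of different probe sets are not comparable in height.

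The chaperones that bind unfolded protein directly were near their control signals. Hspa5, the gene of BiP, the main ER chaperone and the repressor of all 3 sensors, gave 5918 in the control and 6616 in phosphate, a log2 ratio of 0.16, with −0.05 and 0.23 on its other probe sets. Hsp90b1, the gene of GRP94, had 2891 and 2914, a ratio of 0.01, and its second probe set differed as little. These 2 genes usually rise together in the unfolded protein response. Neither differed here by 1.5-fold, and whether the response was active was not tested. Hyou1, a large ER chaperone and nucleotide exchange factor for BiP, had 359 and 341 (−0.08), but 0.16 on a dimmer probe set, so no direction can be given.

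The lectin chaperones, which hold glycoproteins during folding, gave small ratios that depended on the probe set. Calr, the gene of calreticulin, had 4293 in the control and 5250 in phosphate (0.29), but its other probe sets gave −0.05 and −0.04. Canx, the gene of calnexin, had 4718 and 4088 (−0.21) and ratios up to 0.18 on another probe set. No direction can be given for either.

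Protein disulfide isomerases, which form and rearrange disulfide bonds, were slightly below or equal to the control. Pdia3, which works with calreticulin and calnexin, had 5940 in the control and 5837 in phosphate (−0.03). Pdia4 had 1243 and 1067 (−0.22) and Pdia6 2591 and 2271 (−0.19), each with a single probe set clear of the floor in both conditions. A dim second probe set of Pdia6, below the floor in the control, pointed the other way with a bound of at least 1.57-fold higher.

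The co-chaperones of BiP with a J domain, which stimulate its ATPase, held the highest ratio of the ER genes. Dnajb9, the gene of ERdj4 and a known Xbp1 target, had 1704 in the control and 2299 in phosphate, a log2 ratio of 0.43 (1.35-fold) on its single probe set. Dnajc3, the gene of p58IPK, had 2056 and 2576 (0.33), while its other 4 probe sets gave ratios between −0.77 and −0.07. Dnajb11, the gene of ERdj3, had 941 and 970 (0.04). The only error that could be had was technical, the standard deviation (SD) of log2 ratios between probe sets of the same gene. It was 0.16 where both signals exceed 400 (1160 genes), 0.26 where the dimmer is between 100 and 400, and 0.42 below that, and it holds no difference between cultures. Dnajb9 exceeded it without reaching 1.5-fold, and the probe sets of Dnajc3 gave no direction.

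Other stress-induced genes of secreted or lumenal proteins did not differ by 1.5-fold. Sdf2l1, a partner of ER J-domain proteins, had 511 in the control and 401 in phosphate (−0.35). Creld2, a disulfide isomerase-like ER protein, had 775 and 695 (−0.16). Manf, a secreted stress-induced factor, had 3807 and 3622 (−0.07).

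The 3 genes of ER-associated degradation, which sends misfolded protein to the proteasome, all had ratios below 0 on their brightest probe sets. Herpud1, an organizer of the degradation complex, had 1151 in the control and 948 in phosphate (−0.28), and its second probe set also gave −0.28. Sel1l, the adaptor of the ubiquitin ligase HRD1, had 873 and 768 (−0.18), with ratios of −0.47 to −0.12 over 4 probe sets. Edem1, which extracts mannose-trimmed glycoproteins, had 1096 and 840 (−0.38), but 0.12 on its other probe set. None was 1.5-fold lower.

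**Figure D2:**
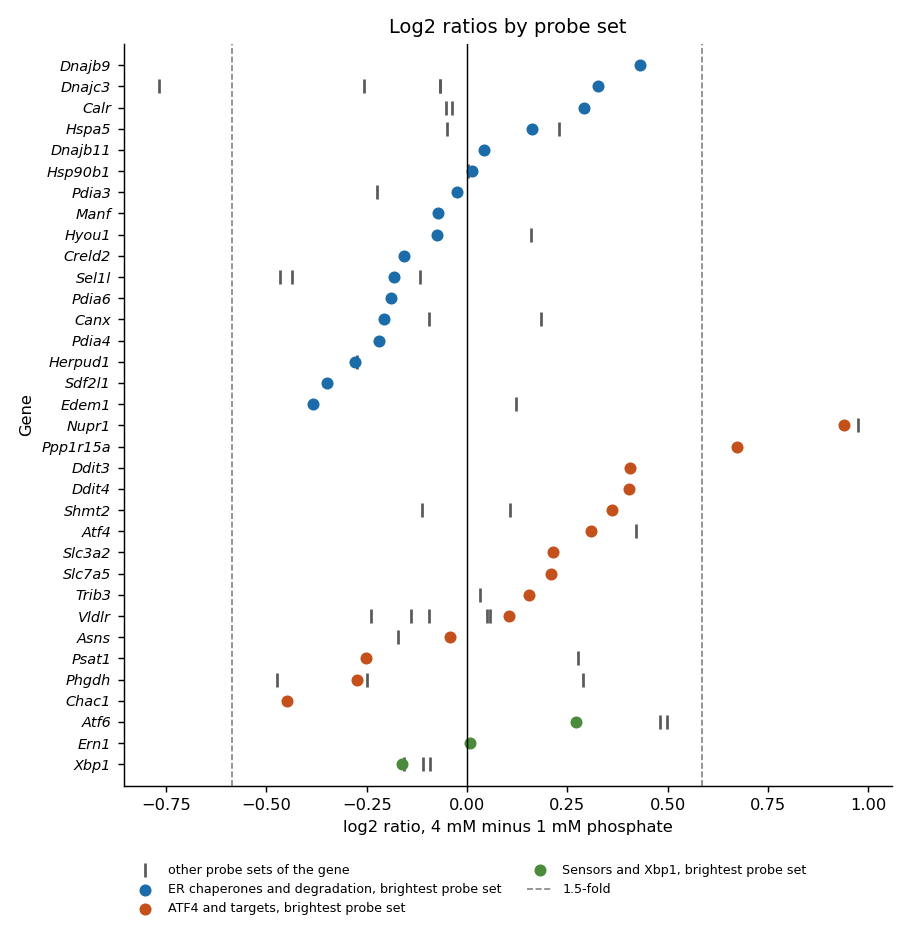
Log2 ratios (4 mM minus 1 mM phosphate) of the 72 probe sets clear of the floor in both conditions, by gene. Coloured points are the brightest probe set of each gene, grey ticks the other probe sets, and dashed lines mark 1.5-fold. Both probe sets of Nupr1 lie beyond the upper line, while those of Dnajc3, Calr, Psat1 and Phgdh fall on both sides of 0.

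Atf4 itself gave 2628 in the control and 3252 in phosphate, a log2 ratio of 0.31, with 0.42 on its second probe set. ATF4 is controlled mainly through translation, which arrays do not measure. Ddit3, the gene of the pro-apoptotic factor CHOP that lies downstream of ATF4, had 239 and 316 (0.41). Both were above the control by less than 1.5-fold.

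Nupr1 had the highest ratio of the 34 genes. It encodes a small stress-induced chromatin protein known as p8. Its signal was 4310 in the control and 8261 in phosphate, and the second probe set had 3311 and 6498. The log2 ratios, 0.94 and 0.97, agree closely between probe sets and lie far beyond the technical SD of 0.16. With the spikes set equal the ratio was 0.48.

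Ppp1r15a encodes GADD34, the stress-induced phosphatase subunit that removes phosphate from eIF2alpha and restores translation. Its signal was 187 in the control and 298 in phosphate, a log2 ratio of 0.67 from 1 probe set, against a technical SD of 0.26 at this brightness. With the spikes set equal it was 0.21. Ddit4, the gene of REDD1, an inhibitor of mTORC1, had 1029 and 1361 (0.40), also from 1 probe set.

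Chac1 and Trib3, which are among the targets most tied to ATF4 and CHOP, were far dimmer than Nupr1. Chac1, an enzyme that degrades glutathione, had 165 in the control and 121 in phosphate, a log2 ratio of −0.45 and the lowest of the 34. It rests on 1 probe set, against a technical SD of 0.26 at this brightness. Trib3, a pseudokinase that feeds back on ATF4, had 39.4 and 43.9 (0.16), and 0.03 on its other probe set. Both Trib3 ratios lie within the technical SD of 0.42 for such dim signals, so no direction can be given. Vldlr, a lipoprotein receptor, had 2773 and 2979 (0.10) and ratios from −0.24 to 0.10 over 6 probe sets.

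The 6 amino acid genes of the ATF4 arm all lay within 1.5-fold of the control. The 3 synthesis enzymes had ratios at or below 0 on their brightest probe sets. Asns, asparagine synthetase, had 847 in the control and 822 in phosphate (−0.04). Phgdh, the first enzyme of serine synthesis, had 635 and 525 (−0.28), with 0.29 on the dimmest of its 4 probe sets. Psat1, the next enzyme, had 852 and 716 (−0.25), but 0.28 on its second probe set, so no direction can be given. A further 2 probe sets name Phgdh together with another gene and were not used here.

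Transport and one-carbon genes had ratios above 0 on their brightest probe sets. Slc7a5 and Slc3a2 encode the light and heavy chains of the amino acid exchanger LAT1. They had 187 and 215 (0.21), and 680 and 788 (0.21), from 1 probe set each. The ratio of Slc7a5 lies within the technical SD of 0.26 at its brightness, so no shared direction can be given. Shmt2, the mitochondrial serine hydroxymethyltransferase, had 336 and 432 (0.36), with 0.11 and −0.11 on dimmer probe sets, so no direction can be given.

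The sensors gave no common direction. Ern1, the gene of IRE1, had 304 in the control and 305 in phosphate (0.01) on the only probe set of 5 that cleared the floor in both conditions. Dim probe sets above the floor only in phosphate gave bounds of at least 1.56-fold and 1.05-fold higher. Atf6 had 295 and 356 (0.27), and its other probe sets gave 0.48 and 0.50, so all 3 pointed the same way at less than 1.5-fold. Xbp1, the transcription factor made from the transcript that IRE1 splices, had 5630 and 5029 (−0.16), with ratios of −0.16 to −0.09 over 4 probe sets. These signals are taken as total transcript, and splicing of Xbp1 was not measured.

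Of the 20 genes with 2 or more probe sets clear of the floor in both conditions, 5 had all of them above 0, 5 all below 0 and 10 on both sides. Some that agree in sign are near 0, such as Hsp90b1 (0.003 and 0.011). The same count was not made over all genes, so it is no result about these 20. Nupr1 alone had every probe set beyond 1.5-fold. The plot of members among all genes sets these ratios against the rest of the array.

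**Figure D3:**
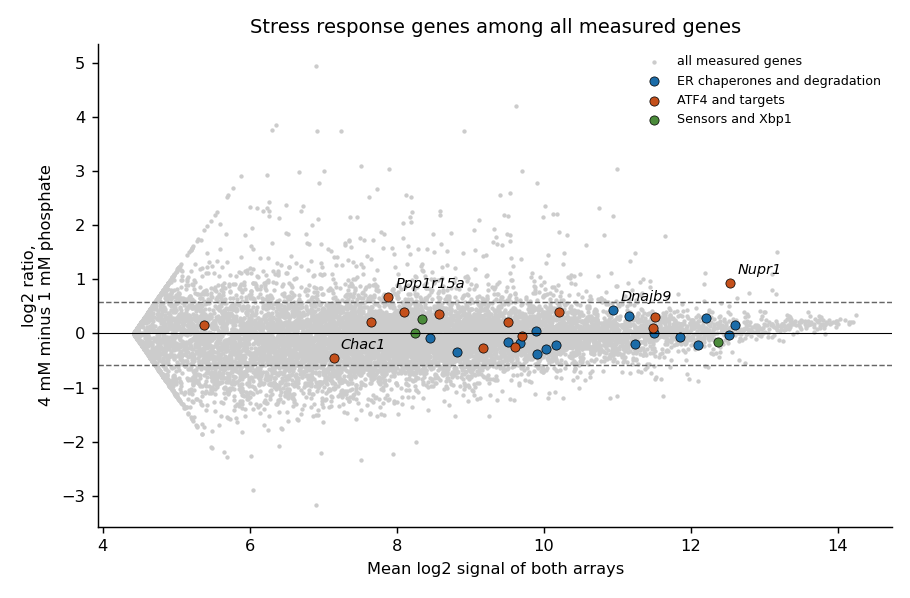
Log2 ratio (4 mM minus 1 mM phosphate) against mean log2 signal of both arrays for 12276 measured genes (grey) and the 34 stress response genes (coloured by arm), with dashed lines at 1.5-fold. Apart from Nupr1 and Ppp1r15a the coloured points lie between the dashed lines.

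Related genes of the same pathways were taken from 5 further lists, drawn up from textbook knowledge but with earlier results of these data known. Of 38 measured genes of ER degradation, protein translocation and folding, 0 were higher by 1.5-fold and 2 lower, with a median of −0.02. The shares of all measured genes were 7.26% and 12.1%. The highest were Ero1b, an oxidase that feeds disulfide isomerases (65.6 and 82.0, log2 ratio 0.32), and Sec63, a translocon subunit (0.20, with −0.85 on its lowest probe set). The lowest were Edem2, a mannosidase that marks glycoproteins for degradation, with 284 in the control and 161 in phosphate (−0.82), and Derl3, a degradation factor. Derl3 was below the floor in phosphate, so it was at least 1.99-fold lower from a dim 42.7.

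Among 22 measured kinases, sensors and other factors of these pathways, 4 were at least 1.5-fold higher and 1 was lower. The shares of all measured genes were 7.26% and 12.1%. The same 4 also passed 2-fold upwards, as did 2.3% of all measured genes. The median was 0.18 and became −0.29 with the spikes set equal. All 4 higher genes are induced by many signals, ER stress among them, and the cause of their ratios here was not tested. Cebpb, a C/EBP partner of ATF4, had 962 in the control and 3391 in phosphate (log2 ratio 1.82, and 2.23 on its second probe set). Atf3, a repressor downstream of ATF4, had 87.1 and 231 (1.41). Pmaip1, the pro-apoptotic gene of Noxa, had 79.5 and 197 (1.31), and Nfe2l2, the gene of the antioxidant factor NRF2, had 948 and 1972 (1.06). The lowest were Jdp2, a repressor of AP-1, at −0.62 and Mbtps2, a protease that cuts ATF6, at −0.51. Named after their values were seen, Eif2ak3, the gene of PERK, had 682 and 664 (−0.04), Creb3l1, the gene of the osteoblast ER sensor OASIS, had 879 and 834 (−0.08), and Ppp1r15b, the constitutive counterpart of GADD34, had 730 and 947 (0.38).

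A further list linked to ATF4 held mainly genes of amino acid and one-carbon metabolism, with Vegfa, Gadd45a, Stc2, Eif4ebp1, Sesn2, Ddr2 and Lonp1 besides. Of 23 measured, 2 were at least 1.5-fold higher and 3 lower, against 7.26% and 12.1% of all measured genes. The median was 0.09 and became −0.36 with the spikes set equal. Vegfa, the angiogenic growth factor, had 292 in the control and 493 in phosphate (0.76), and Slc1a4, a neutral amino acid transporter, had 166 and 252 (0.61). Psph, the last enzyme of serine synthesis, had 370 and 240 (−0.62), and Pck2, the mitochondrial phosphoenolpyruvate carboxykinase, had 708 and 447 (−0.66). Sesn2, a stress-induced inhibitor of mTORC1, was at least 4.27-fold lower on its brightest probe set but at 0.35 on another, so no direction can be given. None of 19 aminoacyl-tRNA synthetase genes, a class that ATF4 activates broadly, differed by 1.5-fold (1 was higher after a loess correction), with a median of −0.09. Of all measured genes, 80.6% lay within 1.5-fold. Sars and Cars were highest (0.57 and 0.36), Lars and Tars lowest (−0.53 and −0.33).

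A list of heat shock chaperones outside the ER, which answer to the heat shock factor, had a median of 0.28, or −0.18 with the spikes set equal. The list is mostly cytosolic but holds the mitochondrial chaperone genes Hspd1 (0.14) and Hspe1 (0.19). Of 18 measured, 4 passed 1.5-fold upwards and 0 downwards, against 7.26% and 12.1% of all measured genes. Ratios above 0 were found for 15 of the 18, for 6 of the 17 ER genes and for 44.1% of all measured genes. With the median of probe sets these became 12, 6 and 45.1%, and with the spikes set equal 4, 0 and 10.6%. Hspa4l, an HSP110 family gene, had 95.2 in the control and 290 in phosphate (1.61), and the HSP70 genes Hspa1a and Hspa1b had 64.1 and 117 (0.87) and 201 and 330 (0.71). Hspa1a and Hspa1b are near-identical copies whose probes may not tell them apart. Hsph1, another HSP110 gene, had 629 and 996 (0.66), while Dnajb4 and Cryab were lowest at −0.27 and −0.11. Whether the heat shock and ER chaperones differ in response could not be tested with 1 array each.

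**Figure D4:**
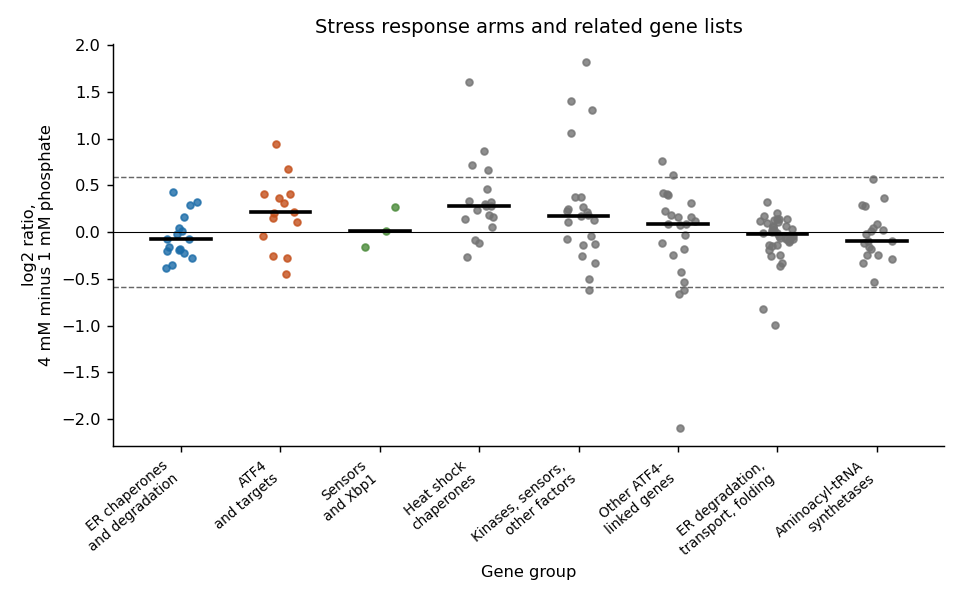
Log2 ratios (4 mM minus 1 mM phosphate) of the genes of the 3 arms (coloured) and of 5 related lists (grey), 1 point per measured gene, with the median as a black bar and dashed lines at 1.5-fold. The medians run from −0.09 for aminoacyl-tRNA synthetases to 0.28 for heat shock chaperones, and points beyond the upper line among the 3 arms belong to Nupr1 and Ppp1r15a.

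**Figure D5:**
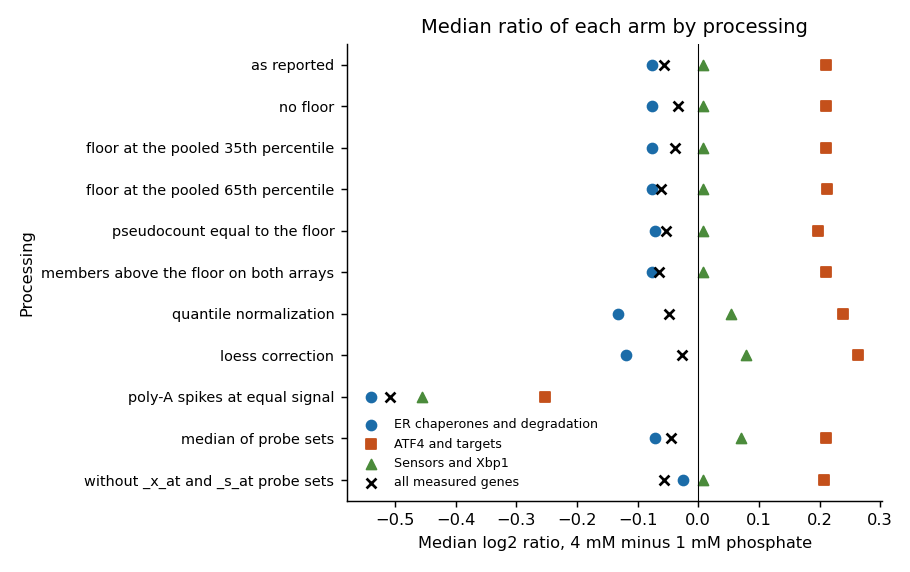
Median log2 ratio of each arm and of all measured genes (crosses) under the reported processing and 10 alternatives. The ATF4 median lies right of the crosses in each row, and all 4 medians move left together when the poly-A spikes are set to equal signal.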

How the data were processed

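The authors deposited 1 linear intensity for each probe set of each array, made with MAS5 in GCOS 1.4, per the submitters' processing notes. Biotin-labelled cRNA came from 100 ng of total RNA, per the labels' protocols. MAS5 combines the probes of a probe set and scales each array by 1 factor, so a change of total mRNA per cell is hidden. Leaving out 2% of values at each end, the mean was 200.00 on both arrays. The genome build is not given in the sources used here.

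Of 45037 probe sets other than 64 controls, 34945 named 1 gene in the platform annotation, 932 several and 9160 none. Symbols were matched by Entrez identifier to RefSeq (GRCm38.p6), which changed 0. Values below the pooled median (21.5) were raised to it, and the brightest measured probe set stood for a gene. Where 1 array was below this floor the ratio is a bound, written as at least N-fold. Groups were taken from the sample labels. Genes were counted at 1.5-fold and 2-fold, with no test. Any of the 34 genes could be named, and of each related list the 2 highest, the 2 lowest and genes at least 1.5-fold different on every measured probe set. The 34 genes and the lists were chosen with earlier results of these data known. Scripts (Python 3.11.15, pandas 2.3.3, statsmodels 0.14.6) were tested on simulated data. Alternatives were other floors, a pseudocount, quantile and loess normalization, spike scaling and other choices of probe set.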

Additional observations from a re-analysis of the deposited data

How the results depend on the processing

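Across 10 alternatives, the counts past 1.5-fold (2 genes higher, 0 lower) and the 3 medians within 0.1 held under 9. The same 2 genes, Nupr1 and Ppp1r15a, passed each time. Some of these settings could not alter the 34 ratios, because the brightest probe set of each gene already cleared 21.5 in both conditions. They were no floor, a floor at the 35th percentile and the rule that both signals clear the floor. A floor at the 65th percentile only removed Trib3. Agreement under these floor settings is therefore no evidence of stability. With the poly-A spikes at equal signal, 0 genes were higher and 12 lower (2.14% and 41.8% of all measured genes), and the medians of the ER, ATF4 and sensor genes were −0.54, −0.25 and −0.46. The shift follows from that scaling, which lowers each ratio of these genes by 0.46. With it, genes higher and lower by 1.5-fold numbered 0 and 10 for ER degradation, translocation and folding, 4 and 6 for the other factors, 0 and 6 for the further ATF4-linked genes, 0 and 8 for the synthetases and 1 and 1 for the heat shock chaperones, to be read against the same shares. Of 338 single-gene values, 297 stayed within the technical SD, 34 moved under the spike scaling and 7 with another choice of probe set. The 297 include the values that the floor settings named above could not alter. Neither of the 2 genes past 1.5-fold changed sign, but other genes did. With the spikes set equal, 2 of the 34 genes had a ratio above 0, against 18 as reported. The 7 were Calr (−0.04), Dnajc3 (−0.07), Edem1 (−0.13), Pdia6 (0.23) and Psat1 (0.01) with the median of probe sets, and Canx (0.18) and Vldlr (−0.14) without probe sets whose identifiers end in _x_at or _s_at, which may bind several transcripts. In related lists, the further ATF4-linked genes had 5 higher without a floor and 1 with a pseudocount (2 as reported), the other factors 0 lower after loess and 2 with the median of probe sets (1 as reported), the synthetases 1 higher after loess (0 as reported), and the ER degradation list 1 lower with the floor at the 65th percentile or with genes over the floor on both arrays (2 as reported). Dim values limit Trib3 and Chac1. No array could be left out, and no paired analysis was possible because each condition has 1 array.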
